A study of Mus musculus with 4 samples.

Results

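Myogenic cells were taken from droplet single-cell RNA libraries of E13 to 13.5 mouse thymic lobes, with the cells chosen by their own transcripts. A cell was counted as myogenic when it had at least 200 genes and at most 10% of its UMIs (unique molecular identifiers, each marking 1 captured transcript) on mitochondrial genes, and when at least 2 of Pax7, Myf5, Myod1, Myog, and Chrna1 had a UMI. It also had at most 1 UMI of the epithelial gene Epcam and none of the hematopoietic gene Ptprc or the endothelial gene Cdh5. Of 29510 cells kept in all, 288 met these limits, and 274 of the 288 lay in 1 library, that of the Tbx1neo2/neo2 carrier embryos. The other libraries held 6 (Tbx1+/+ carrier), 8 (Tbx1neo2/neo2 minoxidil), and 0 (Tbx1neo2/neo2 PGE2) such cells.

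There was 1 library for each condition, so there were no replicates and no spread between embryos, and no test was made. The neo2 allele, in which an intron of Tbx1 holds a neomycin cassette, is a hypomorph carried in the germline and so in every cell. Tbx1 is a T-box transcription factor needed for the pharyngeal pouches. Embryos came from intercrosses of mice heterozygous for neo2. Pregnant mice had received ethanol carrier, minoxidil, or prostaglandin E2 (PGE2) by intraperitoneal injection on E8, E9, and E10, so all 4 groups, the Tbx1+/+ group included, share the injections. Hypoplastic lobes were pooled, and the number of embryos in each library was not given in the sources used here. The libraries held 11474 (Tbx1+/+ carrier), 10683 (Tbx1neo2/neo2 carrier), 3201 (minoxidil), and 4152 (PGE2) kept cells with a median of 21125, 14108, 41084, and 34790 UMIs.

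Skeletal muscle is built in steps that these genes mark. Pax7, and in the embryo Pax3, are transcription factors of dividing muscle progenitors, Myf5 and Myod1 commit cells to the lineage, and Myog drives terminal differentiation. Chrna1 encodes the α subunit of the muscle acetylcholine receptor, made as the fibers form. Differentiating cells leave the cell cycle, fuse through Mymk and Mymx, and assemble sarcomeres. Muscles of the trunk, limbs, and tongue come from somites, where Pax3 and Lbx1 act, while branchiomeric muscles of the face and throat come from pharyngeal mesoderm, where Tbx1, Msc, Tcf21, and Isl1 act. Hox genes mark position along the body axis, with higher numbers toward the tail and, in the limb, toward the tip.

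The differentiation factors bind E-boxes, 6-base sites with the letters CANNTG. The proximal promoters of Chrna1, Myog, and Tnnt2 are shown as examples because, of 8 windows of 7 genes searched, they include the pair with most E-boxes and that of Myog itself. Chrna1 and Myog are rule genes. Each runs from 250 bases before to 50 bases after the start of transcription (RefSeq, GRCm38.p6), is written 5′ to 3′ on the strand of its gene, and has every CANNTG in capitals. The Chrna1 window lies at chr2:73580289-73580588 on the minus strand, the Myog window at chr1:134289754-134290053 on the plus strand, and the Tnnt2 window, that of 1 of its 2 listed starts, at chr1:135836084-135836383 on the plus strand.

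Chrna1: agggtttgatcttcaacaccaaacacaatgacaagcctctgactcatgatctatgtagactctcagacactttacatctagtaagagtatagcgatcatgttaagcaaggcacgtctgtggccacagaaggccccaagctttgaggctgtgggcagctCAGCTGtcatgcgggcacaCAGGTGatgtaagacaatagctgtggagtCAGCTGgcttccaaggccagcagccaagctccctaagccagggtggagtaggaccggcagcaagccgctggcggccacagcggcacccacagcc

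Myog: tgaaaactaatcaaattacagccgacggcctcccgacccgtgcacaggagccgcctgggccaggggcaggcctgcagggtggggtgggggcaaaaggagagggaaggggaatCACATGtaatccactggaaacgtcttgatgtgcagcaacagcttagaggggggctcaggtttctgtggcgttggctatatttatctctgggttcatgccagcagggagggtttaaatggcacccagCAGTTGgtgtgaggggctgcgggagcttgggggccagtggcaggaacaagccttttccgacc

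Tnnt2: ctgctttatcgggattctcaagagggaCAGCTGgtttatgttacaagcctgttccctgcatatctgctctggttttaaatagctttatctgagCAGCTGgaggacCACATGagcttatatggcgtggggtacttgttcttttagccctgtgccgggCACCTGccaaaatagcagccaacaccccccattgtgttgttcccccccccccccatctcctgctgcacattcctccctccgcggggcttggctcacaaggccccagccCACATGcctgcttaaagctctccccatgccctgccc

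The Chrna1 window held 3 E-boxes, with their first letters 92, 73, and 44 bases before the start. The outer pair read CAGCTG and the middle site read CAGGTG. The Myog window held 2, CACATG at 138 and CAGTTG at 12 bases before the start. The Tnnt2 window held 5, of which 2 read CAGCTG. Of the windows not shown, the other Tnnt2 start held 2, Actc1 and Myl1 held 1 each, and Pax7 and Myf5 held 0. The letters read the same on both strands for CANNTG as a class, and such matches are common. Of 32851 promoter windows of this length, 72.3% held at least 1 CANNTG, 17.6% held 3 or more, and 2.10% held 5 or more, while 16.3% held CAGCTG and 1.90% held it at least 2 times. These are matches of letters and were not tied to binding of any factor.

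In the Tbx1neo2/neo2 carrier library the myogenic share was 2.56% of kept cells (274 of 10683), with an exact binomial (Clopper-Pearson) 95% interval of 2.27 to 2.88. It was 0.0523% (0.0192 to 0.114) in the Tbx1+/+ carrier and 0.25% (0.108 to 0.492) in the minoxidil library. The PGE2 library had 0 of 4152 cells, which allows a share of up to 0.0723% by the limit of 3 counts and 0.0888% by the exact interval. These intervals, like all below, cover counting error only, and cells of 1 library share their embryos. After every cell was thinned to 5000 UMIs and shallower cells were left out (1037, 1350, 249, and 428 cells), 5 of 10437, 156 of 9333 (1.67%), 4 of 2952, and 0 of 3724 cells remained, in the order Tbx1+/+ carrier, Tbx1neo2/neo2 carrier, minoxidil, and PGE2. The thinned intervals were 0.0156 to 0.112% (Tbx1+/+ carrier), 1.42 to 1.95% (Tbx1neo2/neo2 carrier), and 0.0369 to 0.347% (minoxidil). The same libraries also differed in cartilage-like cells, defined here as mesenchymal cells with at least 2 Col2a1 UMIs and a Sox9 UMI. These numbered 0 of 2512 other mesenchymal cells in the Tbx1+/+ carrier, 1583 of 5171 in the Tbx1neo2/neo2 carrier, 2 of 905 in the minoxidil, and 0 of 791 in the PGE2 library. With 1 library per condition, genotype, embryo pool, and the tissue carried along with the lobes cannot be told apart.

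**Figure D1:**
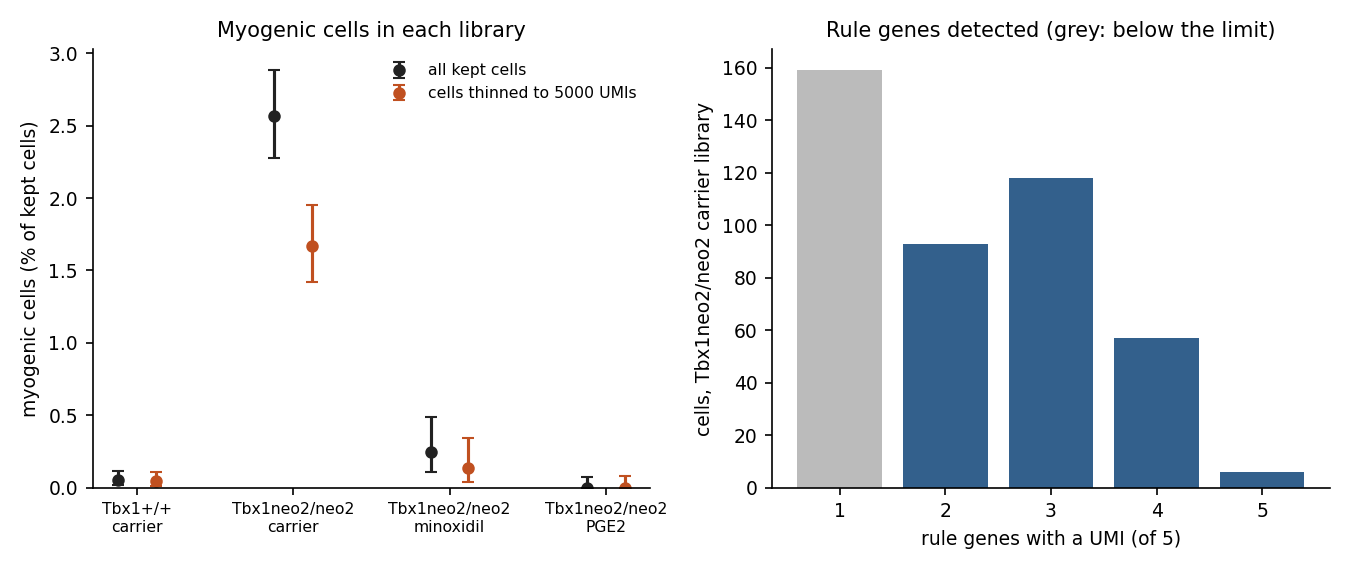
The left panel plots the percent of kept cells that were myogenic in each library, for all kept cells (black) and for cells thinned to 5000 UMIs (orange), with 95% binomial intervals (for a count of 0, up to the share that 3 cells would make). The right panel counts cells of the Tbx1neo2/neo2 carrier library that passed the other limits by the number of rule genes with a UMI, where the grey bar (159 cells with 1) falls below the limit and the blue bars add up to the 274 myogenic cells.

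Tbx1 was then read in every library as a check of the labels. Tbx1 (ENSMUSG00000009097, chromosome 16, 18580979 to 18590671) had 0 UMIs in the 6 myogenic cells of the Tbx1+/+ carrier library, 31 UMIs in 27 of the 274 cells of the Tbx1neo2/neo2 carrier library, and 1 UMI in the 8 cells of the minoxidil library. Summed over all kept cells, Tbx1 had 2.28 (2.11 to 2.46) UMIs per 1000000 UMIs of the cells (CPM, with exact Poisson 95% intervals) in Tbx1+/+ carrier and 2.33 (2.12 to 2.56) in Tbx1neo2/neo2 carrier embryos, then 2.46 (2.21 to 2.72) with minoxidil and 1.14 (0.982 to 1.33) with PGE2. The sum over kept cells did not separate the carrier libraries, so the genotypes named are those of the labels.

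The 5 rule genes were not detected evenly, and their values describe the choice rather than test it. In the 274 cells Myod1 (ENSMUSG00000009471, chromosome 7) had 1803 UMIs in 210 cells, Pax7 (ENSMUSG00000028736, chromosome 4) had 859 in 186, and Myog (ENSMUSG00000026459, chromosome 1) had 3895 in 157. Myf5 (ENSMUSG00000000435, chromosome 10) had 369 UMIs in 134 cells and Chrna1 (ENSMUSG00000027107, chromosome 2) had 470 in 111. Of the 274 cells, 93 had 2 of the genes, 118 had 3, 57 had 4, and 6 had all 5, and another 159 cells that passed the other limits had exactly 1 and were left outside. The cells just outside had a median of 11758 UMIs against 22771 in those with 2 genes. Their summed level of Pdgfra, a receptor of fibroblasts, was 122 CPM against 30.9, and that of Msc, a repressor found in muscle progenitors, was 102 against 530. Markers of other cell types were higher in the cells just outside too, with hematopoietic genes at 446 CPM against 7.96 (Lyz2 had the most UMIs) and erythroid genes at 31625 against 6066. In the cells with 2 genes, Myog stood at 117 CPM, against 698 in those with 3 or more.

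Cells that should lack these genes gave a background for such detection, and the parts of free RNA and of mixed droplets in it were not tested. In the Tbx1neo2/neo2 carrier library 16 of 1055 cells with a Ptprc UMI (1.52%, 0.869 to 2.45), at a median of 30769 UMIs, also had 2 or more of the 5 genes. The same held for 13 of 1627 cells with at least 2 Epcam UMIs (0.799%, 0.426 to 1.36) and for 9 of 287 cells with a Cdh5 UMI (3.14%, 1.44 to 5.87), at medians of 29182 and 27350 UMIs. The myogenic cells had a median of 25761 UMIs, with a range of 633 to 71219. Summed over the 5 genes, the level was 1005 CPM in myogenic cells, 10.6 in cells with a Ptprc UMI, and 1.10 in other mesenchymal cells. Across libraries 91 cell barcodes were shared between kept cells, and 1 of them belonged to a myogenic cell of the Tbx1neo2/neo2 carrier library, matched to a minoxidil cell that was not myogenic.

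Gene levels were then compared, within the Tbx1neo2/neo2 carrier library alone, between the 274 myogenic cells and 5171 other mesenchymal cells. The latter passed the same limits on Epcam, Ptprc, and Cdh5, were not myogenic, and had at least 3 of Pdgfra, Pdgfrb, Prrx1, Twist1, Twist2, and Col6a1. UMIs were summed over each group and scaled to CPM, and a gene with at least 20 UMIs over both groups was called when its levels were 2-fold apart or more and the intervals were separate. Of 14998 genes, 794 were called higher in myogenic cells (5.29%) and 3144 lower (21.0%), with a median log2 ratio over all genes of -0.34. With trimmed mean (TMM) factors in place of total UMIs, which moved the zero point to -0.24 on the log2 scale, 1201 were called higher and 2427 lower. The same cells defined the groups, so these are descriptions of what the chosen cells contained.

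Genes of contraction were higher in myogenic cells. Of 34 sarcomere genes counted, 32 were called higher and none lower, with a median log2 ratio of 4.86. Actc1, the cardiac α-actin that embryonic skeletal muscle also makes, had 8139 UMIs in 200 of the 274 cells, 1106 (1082 to 1130) CPM against 3.31 (2.92 to 3.74) in other mesenchymal cells. Ttn, the giant spring of the sarcomere, had 399 CPM against 3.55, and Neb, the ruler of the thin filament, had 176 against 0.642. Tnnt1, a slow-fiber troponin T, was at 799 CPM against 27.2, and Tpm2, a tropomyosin, at 591 against 262. Tpm1, a tropomyosin of many cell types, was not called, with 1065 CPM against 1550. Myh4, an adult fast myosin, had no UMI in the 274 cells, and Myh2 had 1, whereas Myh3, the embryonic myosin, had 646 UMIs in 43 cells.

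The machinery that links nerve to contraction was present as well. Of 12 excitation and calcium genes, 10 were called higher and 1, Casq1, lower. The count of lower genes was 2 without cells with a Pdgfra UMI, without the highest doublet scores, or without cells under 5000 UMIs. Atp2a1, the calcium pump of the sarcoplasmic reticulum, had 31.7 CPM against 0.201, and Ryr1, its calcium release channel, had 27.9 against 1.21. Of 8 neuromuscular junction genes, 7 were called higher. Rapsn, which clusters the acetylcholine receptors, had 39.1 CPM against 0.315, and Dok7, the activator of the kinase MuSK, had 18.8 against 0.239. The receptor subunits differed in their share of cells, with a UMI of Chrnb1 in 82, of Chrng (the fetal subunit) in 39, and of Chrne (the adult subunit) in 0 of the 274 cells. In the dystrophin complex 3 of 10 genes were called higher and 4 lower, and with TMM factors 4 were higher and 3 lower. Sgca, a muscle sarcoglycan, was at 6.79 CPM against 0.151, while Utrn, the relative of dystrophin, was at 22.1 against 48.8.

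Among regulators, Msc (ENSMUSG00000025930, chromosome 1, 14753346 to 14755992) had the highest ratio of the genes named by size, 283 (271 to 296) CPM against 0.415 (0.286 to 0.583), and was found in 194 of the 274 cells. Pitx3, a homeobox gene of differentiating muscle, had 50.8 CPM against 0.0755, and Vgll2, a cofactor of TEAD proteins in muscle, had 178 against 0.592. Of 17 progenitor genes 11 were called higher, among them Fgfr4, a growth factor receptor of myoblasts (49.6 against 1.56 CPM), and Megf10, a receptor of satellite cells (47.7 against 2.44). Of 12 commitment and cell cycle exit genes 9 were called higher and none lower. Rbm24, a splicing factor of muscle, had 172 CPM against 2.14, and Cdkn1a, the cell cycle inhibitor p21, had 75.5 against 1.31. Cdkn1c, the inhibitor p57, was the gene of that list with most UMIs, at 8166 CPM against 3742. Of 9 fusion and adhesion genes 5 were called higher and 2 lower (1 with TMM factors), with Mymx at 189 CPM against 0.277 and Cdh15, the muscle cadherin, at 101 against 2.17. Fitm1, Arpp21, Ank1, and Sytl2 were also among the 15 genes named by size, with levels of 71.1 to 117 CPM against 0.428 to 1.23.

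Genes of connective tissue were low. All 10 fibroblast and all 13 cartilage genes were called lower, with median log2 ratios of -3.13 and -2.87, and 5 of 6 tendon genes were called lower. Summed over the fibroblast list, the level was 1130 CPM in myogenic cells, 7706 in other mesenchymal cells, and 1441 in cells with a Ptprc UMI, a cell type that should lack these transcripts. By gate the sum was 1246 CPM (progenitor), 1699 (myoblast), and 821 (myocyte), so the myoblast gate stood above that background. The gene with most UMIs of that list was Col3a1, a fibrillar collagen, at 397 CPM against 2387. Aspn, Fam46a, Egfl6, Kctd12, Rspo3, Prss35, Ntrk2, Crispld1, Twist1, and Twist2 had the lowest ratios among the genes named by size, from -4.30 for Aspn to -3.45 for Crispld1 on the log2 scale. Twist1 and Twist2, with Pdgfra and Prrx1 of the fibroblast list, were among the genes that defined the other mesenchymal cells, so their low ratios follow from that choice. Of 9 stress and immediate early genes 6 were called lower, with Jun at 141 CPM against 532.

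The defining markers of several other cell types were at or near 0, but those of erythroid cells and the smooth muscle gene Acta2 were not. Ptprc and Cdh5 were at 0 by the rule, and Sox10 and Foxd3 (neural crest) and Pth (parathyroid) also had no UMI in the 274 cells. Of 7 neural crest and glia genes only Erbb3 was called higher, at 41.9 CPM against 1.90, and Fabp7 was called lower. Erbb3 encodes a neuregulin receptor that muscle cells make too. Summed hematopoietic, endothelial, and thymic epithelial markers had 6.79, 2.17, and 14.3 CPM in myogenic cells, where they had 7.34, 7.79, and 37.2 in other mesenchymal cells. The most abundant of each were Cd3g, Kdr, and Krt8, and in the hematopoietic list Cd3g was called higher (29 UMIs in 11 cells, 3.94 against 1.16 CPM). Cardiac genes stood at 7.75 CPM in sum, with Myh6 at 5 and Nppa at 1 UMI. Of 8 pericyte and smooth muscle genes 6 were called lower and 1, the smooth muscle actin Acta2, higher, at 654 CPM against 325, and with TMM factors 2 were called higher. That list summed to 808 CPM in myogenic cells, most of it Acta2, to 648 in other mesenchymal cells, and to 138 in cells with a Ptprc UMI. The 6 erythroid genes summed to 3182 CPM against 3196 and none was called, but Hbb-bs differed among the ranges of cells described below, with 3756 CPM in the cells without Myod1 and Myog, 52.4 in those with Myod1 alone, and 1004 in those with Myog. Its part in the results was not tested. A UMI of Pdgfra was found in 38 of the 274 cells, whose summed fibroblast genes were at 3880 CPM against 433 in the other 236. Without these 38 cells, a choice that lowers the fibroblast genes by construction, 32 of 34 sarcomere genes were called higher.

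Of 10 proliferation genes, 3 were called higher than in other mesenchymal cells and 7 were not called. All 10 had positive log2 ratios, and those called were Mki67, Ccnb1, and Ccna2. With TMM factors 9 of the 10 were called. Mki67, a marker of cycling cells, had 268 CPM against 128 and was found in 192 of the 274 cells. Top2a, the topoisomerase of dividing cells, had 441 CPM against 241 and was not called.

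**Figure D2:**
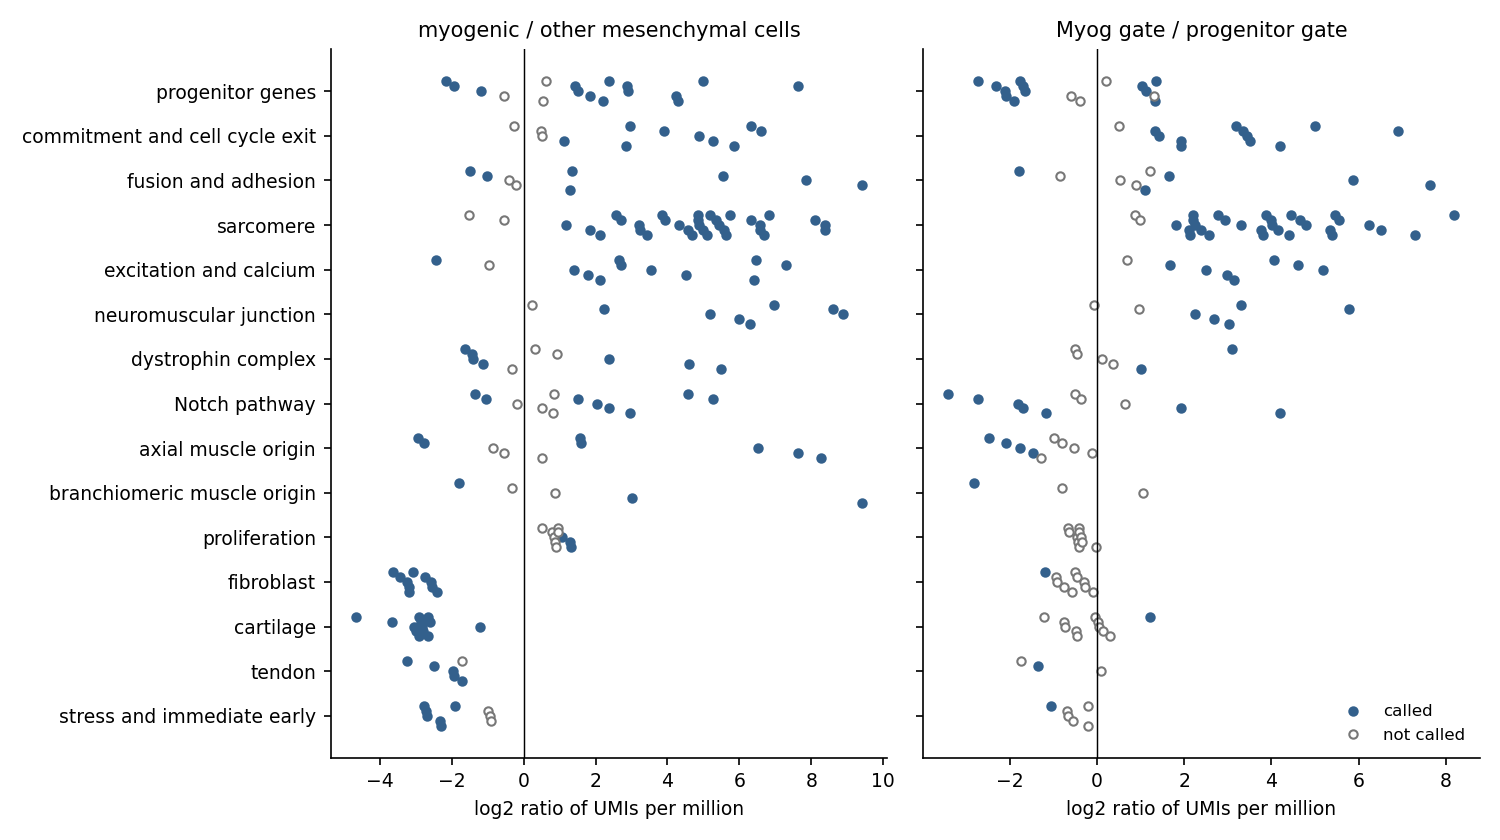
Each point is the log2 ratio of the CPM of 1 gene, by list, for myogenic against other mesenchymal cells (left) and for myogenic cells with Myog against those without Myod1 and Myog (right), in the Tbx1neo2/neo2 carrier library. Filled points were called at 2-fold with separate intervals and open points were not. Sarcomere genes stand to the right in both panels, fibroblast and cartilage genes stand to the left in the first panel, and proliferation genes lie between 0 and 2 in the first panel and below 0 in the second.

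The 274 cells were then divided into ranges by the detection of the differentiation factors. A progenitor gate (no UMI of Myod1 or Myog) held 57 cells (20.8%, 16.2 to 26.1), a myoblast gate (Myod1 without Myog) held 60 (21.9%, 17.1 to 27.3), and a myocyte gate (any Myog UMI) held 157 (57.3%, 51.2 to 63.2). The gates are ranges of detection, not cell types, and a shallow cell can fall short of its range. Their medians were 27242, 28008, and 24242 UMIs. After thinning to 5000 UMIs the same gates held 15, 32, and 109 of 156 cells, a lower share in the progenitor gate (9.62%) and a higher one in the myocyte gate (69.9%). With 3 rule genes required, the progenitor gate held 2.21% (0.605 to 5.56) and the myocyte gate 71.3%. By its definition the progenitor gate then keeps only cells with Pax7, Myf5, and Chrna1 together.

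Levels changed in steps over the gates. The rule genes used in the choice are given first, as a description. Pax7 stood at 194 (173 to 216) CPM in the progenitor, 164 (146 to 184) in the myoblast, and 62.2 (54.7 to 70.6) in the myocyte gate. Myf5 stood at 103, 74.4, and 16.4 CPM. Chrna1 ran the other way, with 3.57, 13, and 113 CPM. By the rule every progenitor gate cell needed 2 of Pax7, Myf5, and Chrna1, and 57 of the 57 had Pax7 and 56 had Pax7 with Myf5. Pax7 and Myog were found together in 70 cells, and Myf5 and Myog in 33.

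Of 9775 genes compared between the myocyte and the progenitor gate, 415 were called higher (4.25%) and 394 lower (4.03%), with a median log2 ratio of -0.12. With TMM factors, which moved the zero point to -0.16, 488 were called higher and 267 lower. With means of per-cell CPM 686 were called higher and 898 lower, so the balance depended on the setting. Contractile genes were again higher. Of 31 sarcomere genes 29 were called higher, and none lower. Tnnt2, a troponin T whose promoter is shown above, was at 11.3 (6.81 to 17.7) CPM in the progenitor, 7.89 (4.31 to 13.2) in the myoblast, and 471 (450 to 493) in the myocyte gate. Actc1 stood at 49.4, 104, and 2016 CPM and Ttn at 33.3, 63.1, and 709. Tnni1, the slow troponin I, had 1 UMI in the progenitor gate and 684 in the myocyte gate, a log2 ratio of 8.20 with a counting interval of 5.72 to 13.51. For Tnnc1 (2 and 726 UMIs) the log2 ratio was 7.29 (5.43 to 10.34), and for Myh3 (3 and 643 UMIs) it was 6.53 (4.97 to 8.81). Myl1, Mylpf, Myl4, Sln, and Klhl41 were among the 15 highest as well. Pericyte and smooth muscle genes summed to 309, 487, and 1168 CPM over the 3 gates. Of these sums Acta2 made 143, 296, and 1037 CPM, and the rise was that of Acta2. Of 4 genes of that list counted, 1 was called higher and 1 lower in the myocyte gate. Their part in the result was not tested.

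The fusion genes were detected in the myocyte gate and in neither earlier gate. Mymk, the membrane protein that makes myoblasts competent to fuse, had 0 UMIs in the progenitor gate, 0 in the myoblast gate, and 407 in 75 of the 157 cells of the myocyte gate. Mymx, its small partner, had 0, 0, and 1388. Against a floor of 3 counts over the progenitor gate, Mymk was at least 58.4-fold and Mymx at least 199-fold higher in the myocyte gate. Cdh15 was found in all gates, at 70.3, 65.9, and 131 CPM, and was not called. Il17b, a cytokine gene, had 0 UMIs in both early gates and 65.1 CPM with Myog, and Cnr1, a cannabinoid receptor, had 1.79, 3.38, and 67.9 CPM.

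Genes of cell cycle exit were higher in the myocyte gate, while genes of division were not called. Cdkn1a had 2 UMIs in the progenitor gate, 1 in the myoblast gate, and 553 in the myocyte gate, a log2 ratio of 6.89 (5.03 to 9.94) between the outer gates. Of 12 commitment and cell cycle exit genes 11 were called higher, among them Rb1, the retinoblastoma protein (7.74 against 84.0 CPM), and Mef2c, a partner of the myogenic factors (14.3 against 130). Gadd45g, a growth arrest gene, had 3.57 CPM against 97.6. None of 10 proliferation genes was called in either direction, although all 10 log2 ratios were below 0, from -0.67 for Cenpf to -0.03 for Ccna2.

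The 157 cells with Myog were divided at their median share of UMIs on Myog, a division chosen after the values were seen. Levels were compared between the 78 cells with the higher share and the 79 others. Pcna, a clamp of DNA replication, was at 26.3 (19.1 to 35.3) CPM against 91.9 (79.7 to 105), and Mcm5, a replicative helicase subunit, was at 23.9 (17.1 to 32.5) against 70.8 (60.2 to 82.8). Mki67 was at 171 (152 to 193) against 274 (253 to 296). These were the steeper members of their list, since all 10 proliferation genes together summed to 1757 CPM against 2168. Pax7 was at 10.2 CPM against 101, Mymk at 225 against 13.4, and Tnnt2 at 1021 against 58.3. Markers of other cell types also differed, with erythroid genes at 4518 CPM against 2103, fibroblast genes at 602 against 986, and Acta2 at 1401 against 765. The median cell had 20947.5 UMIs against 27683, and total UMIs are the denominator of the share that set the division. The part of these differences in the result was not tested.

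**Figure D3:**
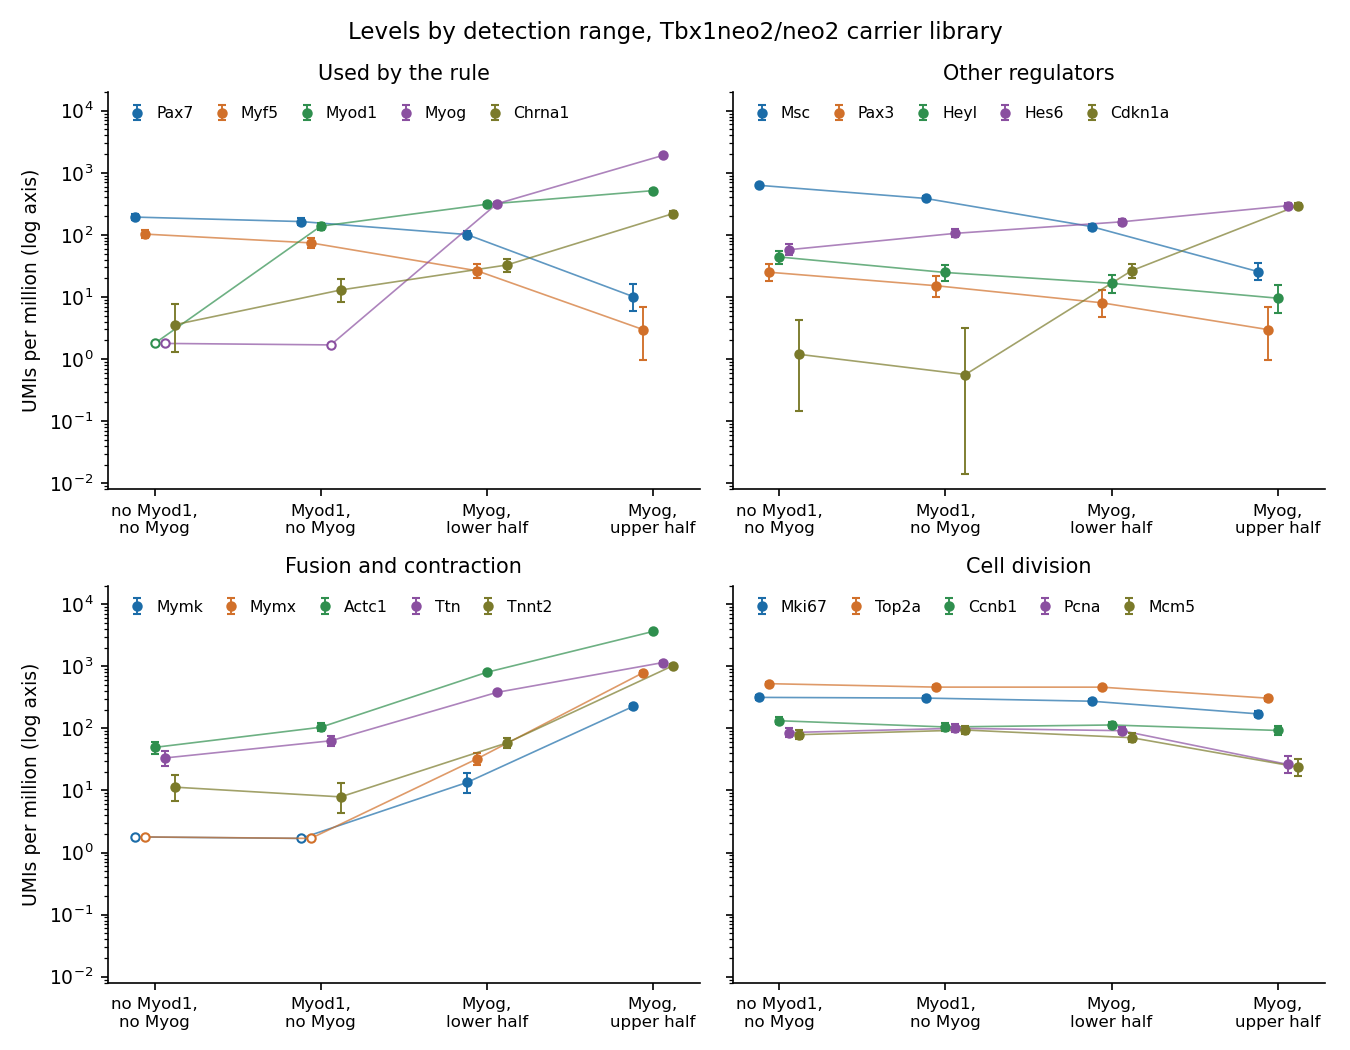
Levels in CPM (log axis) with 95% Poisson intervals are plotted for 20 genes over 4 ranges of myogenic cells in the Tbx1neo2/neo2 carrier library. The cells of the Myog gate were divided at their median share of UMIs on Myog. Open points are genes with no UMI, drawn at the level of 3 counts, and lines join the points of a gene. Pax7, Myf5, Msc, and Pax3 descend from left to right, the fusion and contraction genes climb, and Pcna and Mcm5 drop at the last range.

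Of 16 progenitor genes 8 were called lower and 4 higher in the myocyte gate. The higher ones included Megf10 (26.2, 26.5, and 66.6 CPM in the progenitor, myoblast, and myocyte gates). Msc stood at 628 (590 to 667) CPM in the progenitor, 386 (358 to 416) in the myoblast, and 88.6 (79.5 to 98.5) in the myocyte gate. Chodl, a membrane lectin, had the lowest ratio of the genes named by size, with 178, 84.5, and 9.22 CPM and a log2 ratio of -4.27. Dbx1, a homeobox gene better known from spinal interneurons, followed with 118 (102 to 136), 65.3 (54.0 to 78.4), and 8.20 (5.61 to 11.6) CPM. Dbx1 had 346 UMIs in 82 of the 274 cells and 3 UMIs in the 5171 other mesenchymal cells, a log2 ratio of 10.28 (8.72 to 12.57). S1pr3, Col18a1, Gxylt2, Fap, Tspan9, and Fzd4 were the rest of the 10 lowest, together with Tcf15, described below.

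Notch genes, which hold muscle progenitors back from differentiation, divided along the gates. Of 10 counted, 5 were called lower and 2 higher in the myocyte gate. The Notch targets Heyl (44.1, 24.8, and 13.6 CPM) and Hey1 (27.4, 14.6, and 4.10), the receptor Notch3 (85.1, 61.4, and 24.1), and the ligand Jag1 (13.7, 6.76, and 1.28) were called lower, as was Hes1. The ligand Dll1 had 1.19, 1.69, and 21.8 CPM and was called higher, as was Hes6, a Hes-related gene that favors differentiation, at 57.8, 106, and 219 CPM. Heyl and Hey1 were also called higher in myogenic than in other mesenchymal cells, where they stood at 4.49 and 4.19 CPM. Heyl and Hey1 are also in the progenitor list, and Dll1 and Hes6 in the commitment list, so the counts of these lists overlap.

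UMIs of axial and branchiomeric genes were then counted per cell. Of the 274 cells, 120 (43.8%, 37.8 to 49.9) had a UMI of Pax3 or Lbx1, 203 (74.1%, 68.5 to 79.2) had a UMI of Tcf21, Msc, Isl1, Lhx2, Nkx2-5, or Tbx1, 110 (40.1%) had both, and 61 had neither. Cells with both had a median of 30797.5 UMIs and cells with neither 18999. After thinning to 5000 UMIs the shares were 11.5%, 39.7%, and 5.77%. In cells with a Ptprc UMI, which should lack these genes, the shares without thinning were 0.758% for Pax3 or Lbx1 and 13.5% for the branchiomeric genes, at a median of 30769 UMIs. Most of the branchiomeric share was Msc, which 194 of the 203 cells had, and Msc was found in 107 of the 120 cells with Pax3 or Lbx1. Of the others on the list, Tcf21, Isl1, Lhx2, Nkx2-5, or Tbx1 was found in 51 cells (18.6%, 14.2 to 23.7), and 25 of these (9.12% of the 274) had Pax3 or Lbx1 too. After thinning that overlap without Msc was 2 of 156 cells (1.28%, 0.156 to 4.55).

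Of 9 axial genes counted between the gates, 4 (Pax3, Lbx1, Tcf15, and Dmrt2) were called lower in the myocyte than in the progenitor gate and 5 were not called. Lbx1 (ENSMUSG00000025216, chromosome 19), a homeobox gene of migrating limb and tongue precursors, had 171 UMIs in 95 cells and stood at 41.1 (32.0 to 52.0), 24.8 (18.0 to 33.3), and 14.9 (11.3 to 19.2) CPM in the progenitor, myoblast, and myocyte gates. Pax3 (ENSMUSG00000004872, chromosome 1) had 92 UMIs in 54 cells and stood at 25, 15.2, and 5.89 CPM. In the 5171 other mesenchymal cells Lbx1 had 6 UMIs and Pax3 5. Tcf15, a somite gene, stood at 86.3, 53.0, and 15.4 CPM against 13.7 in other mesenchymal cells. Zic1, a zinc finger gene of the dorsal somite, had 59 UMIs in 37 cells and 7 UMIs in the other mesenchymal cells. Of 10 axial genes counted, 5 were called higher than in other mesenchymal cells (Pax3, Lbx1, Zic1, Met, and Tcf15) and 2 lower. The lower ones were Meox1, at 13.5 CPM against 91.5, and Meox2, at 5.84 against 44.9, and both stood below the 22.9 and 9.94 CPM of cells with a Ptprc UMI.

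Among the branchiomeric genes, Msc and Isl1 were called higher and Tcf21 lower. Isl1, a gene of pharyngeal mesoderm, had 58 UMIs in 18 cells, 7.88 (5.98 to 10.2) CPM against 0.969, but cells with a Ptprc UMI had 8.96. Tbx1 stood at 4.21 (2.86 to 5.98) CPM against 2.29 (1.97 to 2.65) and was not called. With TMM factors Tbx1 was called higher, and 3 genes of the list were higher in place of 2. Of the 27 cells with Tbx1, 25 also had Msc. Tcf21, at 2.99 CPM against 10.4, was found in 11 cells, Lhx2 in 5, and Nkx2-5 in 1.

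**Figure D4:**
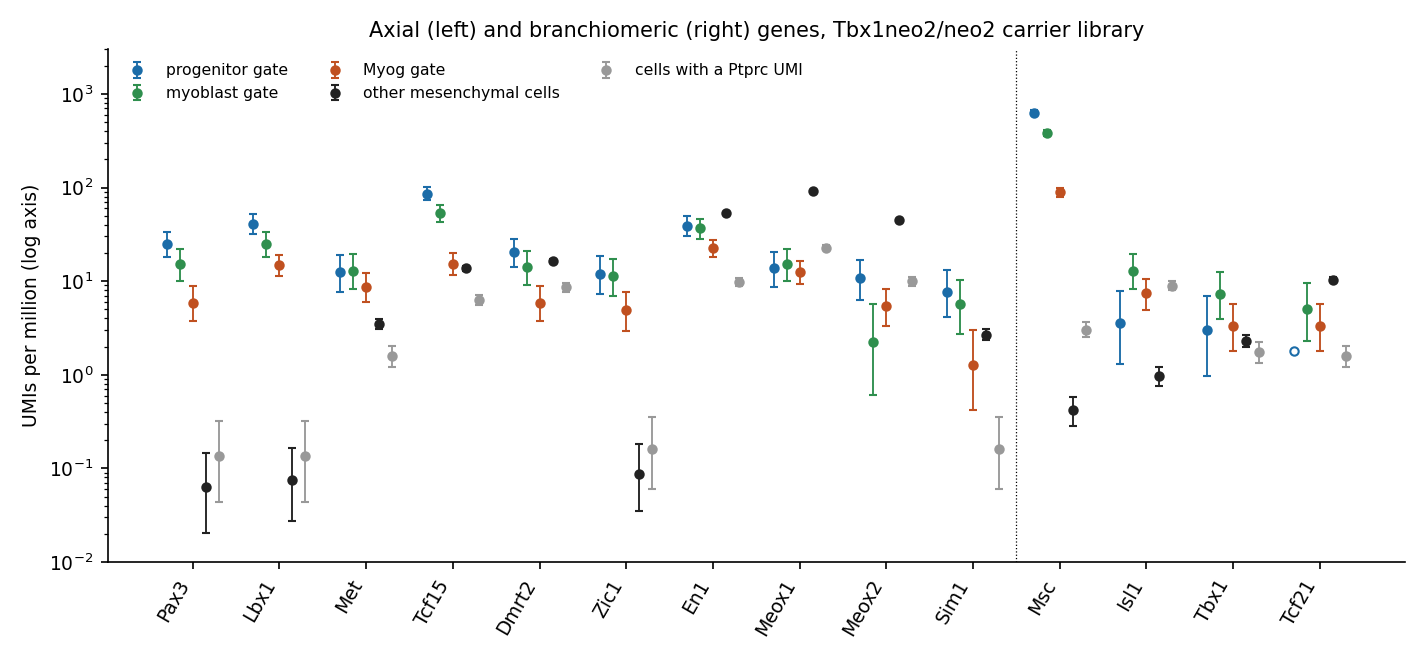
Levels in CPM (log axis) are plotted with 95% Poisson intervals for 10 axial genes (left of the dotted line) and 4 branchiomeric genes (right) in the 3 gates, in other mesenchymal cells, and in cells with a Ptprc UMI, in the Tbx1neo2/neo2 carrier library. Pax3, Lbx1, Zic1, and Msc stand far above both comparison groups, Pax3, Lbx1, and Msc descend from the progenitor to the Myog gate, whereas Meox1 and Meox2 stand below other mesenchymal cells. The open point is Tcf21 in the progenitor gate, with no UMI, drawn at the level of 3 counts.

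Hox genes were lower in myogenic than in other mesenchymal cells. Summed over 39 Hox genes, the level was 247 (236 to 259) CPM in the 274 cells against 729 (724 to 735) in other mesenchymal cells and 910 in those of the cartilage-like definition, a log2 ratio of -1.56 (-1.63 to -1.49) to other mesenchymal cells. A Hox UMI was found in 240 of the 274 cells, and the median cell had 165 CPM against 595. By gate the sum was 341, 304, and 182 CPM. Cells with a Ptprc UMI had 160 (156 to 164) CPM, a value that can be set beside the sum in each gate. In the 38 cells with a Pdgfra UMI the sum was 419 CPM and in the others 204, and the part of free RNA and of mixed droplets in these levels was not tested.

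Of 28 Hox genes counted, 21 were called lower than in other mesenchymal cells and 2 higher. The higher ones were Hoxa10 (ENSMUSG00000000938, chromosome 6), with 126 UMIs in 72 cells, 17.1 (14.3 to 20.4) CPM against 7.25, and Hoxa11, with 21 UMIs, 2.85 (1.77 to 4.36) CPM against 0.290. In cells with a Ptprc UMI they stood at 1.79 and 0.0272 CPM. With 3 rule genes required, the Hoxa10 log2 ratio fell from 1.24 to 0.92 (0.54 to 1.27), below the 2-fold limit, so that call was lost. Hoxa7 had most UMIs, 400 in 143 cells, at 54.4 (49.2 to 59.9) CPM against 100.2. Hoxa9, at 18.6 against 24.5, and Hoxa4, at 7.34 against 5.6, were not called. Of the 16 Hox genes with at least 20 UMIs, 9 stood above cells with a Ptprc UMI with separate intervals, namely Hoxa4, Hoxa5, Hoxa7, Hoxa9, Hoxa10, Hoxa11, Hoxc4, Hoxc5, and Hoxc6. The other 7 (Hoxa2, Hoxa3, Hoxb2, Hoxb3, Hoxb4, Hoxc8, and Hoxd8) overlapped that background. By cluster, Hoxa genes held 58.7% of the Hox UMIs in myogenic cells and 41.7% in other mesenchymal cells, and Hoxb genes held 14.2% and 26.4%.

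**Figure D5:**
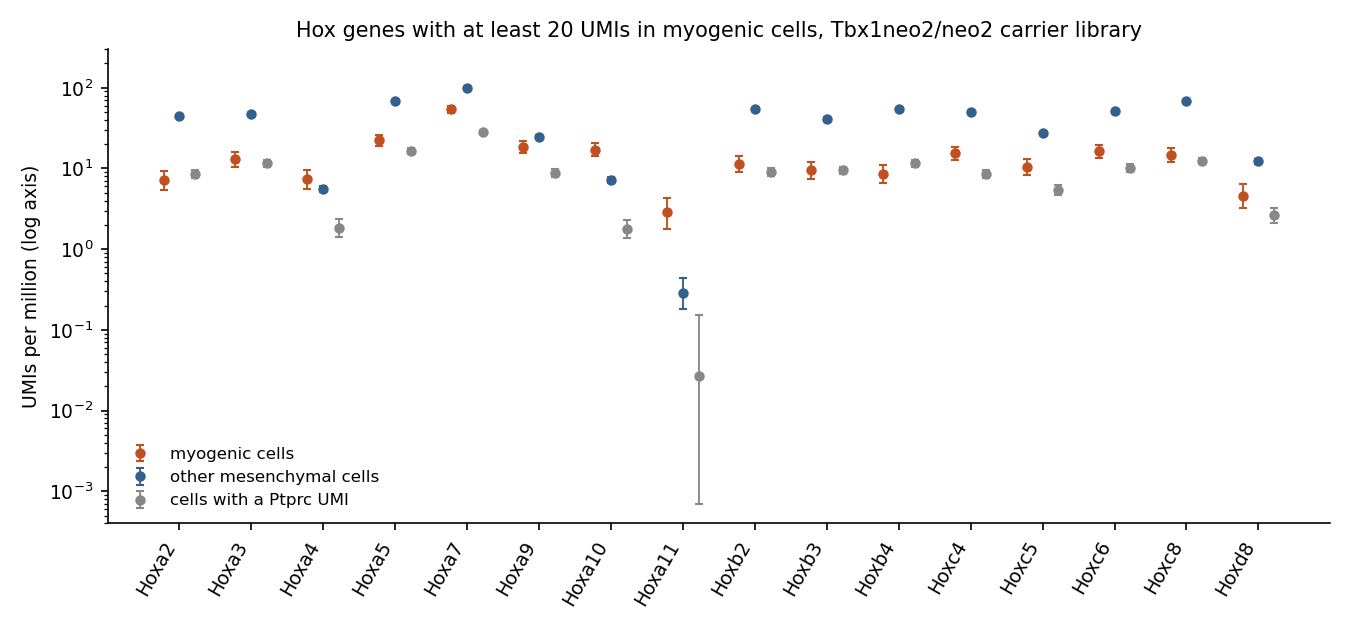
Levels in CPM (log axis) are plotted with 95% Poisson intervals for the 16 Hox genes with at least 20 UMIs in myogenic cells (orange), with the levels in other mesenchymal cells (blue) and in cells with a Ptprc UMI (grey). Blue points lie above orange ones for most genes, and the order turns for Hoxa10 and Hoxa11, and for Hoxa4, which was not called.

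The Hox genes were not shared evenly by the myogenic cells. In a division chosen after the values were seen, 81 cells had Lbx1 without Zic1, 23 had Zic1 without Lbx1, 14 had both, and 156 had neither. Hoxa10 had 81 UMIs in 43 of the 81 cells with Lbx1 alone, 32.2 (25.6 to 40.0) CPM, and none in the 23 cells with Zic1 alone, where 3 counts would make 4.24 CPM. Hoxa9 was at 32.2 (25.6 to 40.0) and 1.41 (0.0358 to 7.87) CPM, and Hoxa7 at 73.5 (63.3 to 84.9) and 22.6 (12.9 to 36.7). Hoxc6 ran the other way, at 6.36 (3.63 to 10.3) CPM with Lbx1 alone and 36.7 (24.0 to 53.8) with Zic1 alone, as did Hoxc8, at 4.77 (2.46 to 8.33) and 35.3 (22.8 to 52.1), although the 25 Hoxc8 UMIs of the latter lay in 4 cells. En1, a homeobox gene of the central somite, was at 14.7 and 81.9 CPM, and Dbx1 was at 96.1 and 7.06. Msc was found in 72 of the 81 and in 21 of the 23 cells. The median cell had 30838 UMIs in the first group and 29970 in the second. In the 14 cells with both genes, Hox genes numbered 9 had no UMI (up to 8.26 CPM). Those numbered 10 had 3 UMIs there, at 6.72 (1.39 to 19.6) CPM. With Lbx1 alone these sums were 35.8 (28.8 to 43.9) and 33.0 (26.3 to 40.9) CPM. Erythroid genes summed to 3398 CPM with Lbx1 alone and 109 with Zic1 alone, and cartilage genes to 194 and 62.1, and their part in the result was not tested.

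The few myogenic cells of the other libraries lay mostly in the myocyte gate. A doublet caller (Scrublet) marked 3 of the 6 Tbx1+/+ carrier cells and none of the 8 minoxidil cells, but 3 of the 8 were among the 5% of their library with the highest doublet scores. Without that 5% the myogenic share was 0.0275% in the Tbx1+/+ carrier and 0.164% in the minoxidil library. Of the 6 cells of the Tbx1+/+ carrier library, 1 fell in the progenitor gate and 5 in the myocyte gate, and all 8 cells of the minoxidil library fell in the myocyte gate. Within that gate Myog, a rule gene, stood at 1827 CPM in the 5 Tbx1+/+ carrier cells, 998 in the 157 Tbx1neo2/neo2 carrier cells, and 1655 in the 8 minoxidil cells. A single cell gave 104 of the 261 Myog UMIs in the first and 154 of the 369 in the last, a spread that counting intervals do not cover. Within the myocyte gate, sarcomere genes summed to 7582 (7137 to 8047) CPM in the 5 Tbx1+/+ carrier cells, 9417 (9321 to 9514) in the 157 Tbx1neo2/neo2 carrier cells, and 7768 (7407 to 8143) in the 8 minoxidil cells. Lbx1 was found in 3 of the 6 and 2 of the 8 cells, Msc in 2 and 2, and Zic1 in none. Hox genes summed to 127 (78.4 to 194) CPM in the 6 and 121 (79.8 to 176) in the 8 cells. Markers of other cell types differed too. Within the myocyte gate, fibroblast genes summed to 140 (Tbx1+/+ carrier), 821 (Tbx1neo2/neo2 carrier), and 3799 CPM (minoxidil). In the same order, pericyte and smooth muscle genes summed to 2842, 1168, and 2844 CPM, and erythroid genes to 63.0, 3138, and 112. Of the 8 minoxidil cells 3 had under 5000 UMIs. The part of these differences in the result was not tested. With as few as 6 and 8 cells a rarer gene can go unseen, and differences from the Tbx1neo2/neo2 carrier library in such genes were not tested.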

How the data were processed

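Thymic lobes of E13 to 13.5 embryos were digested with trypsin and measured by 10x single-cell RNA sequencing in 4 libraries, 1 per condition. The authors made the deposited UMI counts with Cell Ranger 5.0.1 against mm10 (GRCm38), and the labels also name Seurat. The 4 deposited matrices held raw counts for 27998 genes in 11908 (Tbx1+/+ carrier), 11364 (Tbx1neo2/neo2 carrier), 3362 (minoxidil), and 4471 (PGE2) cells, with 292687940, 194023208, 151740600, and 156363845 UMIs. Cells with fewer than 200 genes, or with over 10% of UMIs on mitochondrial genes, were dropped. The myogenic cells and all gene lists were chosen with earlier results of these data known.

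UMIs were summed over each group of cells and scaled to CPM, with exact Poisson 95% intervals, and shares had exact binomial 95% intervals. Both cover counting error only. Genes with at least 20 UMIs were called at 2-fold with separate intervals, and a sum of 0 was set at 3 counts for a fold. No replicate libraries existed, so no test was made. The calling step was run on simulated Poisson counts with no spread between cells, so it cannot show how often calls err in real cells. The text names the rule genes, Tbx1, and Hox genes with at least 20 UMIs. Up to 5 genes per list are named, those with most UMIs and the most extreme ratio. Named by size are the 15 highest and 10 lowest ratios per comparison, among counted genes that reached 50 CPM in either group. Mitochondrial, ribosomal protein, and Gm genes were left out of that ranking, and with them Mymx, stored under an older Gm symbol. Other genes, and the divisions by Myog level and by Lbx1 and Zic1, were chosen after their values were seen. List genes were matched by symbol, 4 of 245 by an older one. The lists share some genes, so their counts overlap. The values of some list genes are not reported here. Gene positions are those of GENCODE vM21.

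Doublets were left in. Scrublet (scanpy 1.11.5) called 567, 0, 70, and 75 cells in the order above, so it did not work in the Tbx1neo2/neo2 carrier library, where leaving out the 5% of cells with the highest score took its place. The alternatives were other mitochondrial, Epcam, and rule gene limits, no filter on low counts, thinning to 5000 UMIs, other folds, TMM factors (edgeR 4.0.16 in R 4.3.3), means of per-cell CPM, and leaving out cells with Pdgfra or under 5000 UMIs. Python 3.11.15, numpy 2.4.6, scipy 1.17.1, pandas 2.3.3, and matplotlib 3.10.9 were used.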

Additional observations from a re-analysis of the deposited data

Results flagged for a closer look

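In the Tbx1neo2/neo2 carrier library, 26 cells had 2 or more of the 5 rule genes but also more than 1 Epcam UMI or any Ptprc or Cdh5 UMI, and they were not counted as myogenic. A further 6 cells with 2 or more rule genes lay over the mitochondrial limit. Both were singled out because they carry the signal outside the cells described, where the Tbx1+/+ carrier and PGE2 libraries had 0 cells of either kind and the minoxidil library had 2 of each.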

How the results depend on the processing

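No paired analysis was possible because each condition had 1 library and no test was made. Across the alternatives 94 values moved by less than their counting interval or 1.5 times and 25 moved further, with no ratio changing sign. The cause was not tested. The myogenic share of the Tbx1neo2/neo2 carrier library was 3.49% at a mitochondrial limit of 5%, 1.69% with 3 rule genes required, 1.67% after thinning, and 2.21% without cells with Pdgfra. The progenitor gate held 2.21% with 3 rule genes and 9.62% after thinning, and the myocyte gate 71.3% and 69.9%. Thinning left Pax3 or Lbx1 in 11.5%, branchiomeric genes in 39.7%, and both in 5.77% of cells. Genes higher in myogenic cells numbered 1547 at 1.5-fold, 464 at 3-fold, and 1201 with TMM factors, and genes lower numbered 1994 at 3-fold. Between gates, 512 genes were higher and 754 lower at 1.5-fold, and 279 and 153 at 3-fold. With means of per-cell CPM 686 were higher and 898 lower, and with no filter on low counts 428 and 445. The balance of 415 higher and 394 lower thus turned at 1.5-fold, with means of per-cell CPM, and with no filter. The summed Hox log2 ratio was -1.75 with 3 rule genes, -1.32 with TMM factors, -1.66 with means of per-cell CPM, -1.68 without the highest doublet scores, and -1.84 without cells with Pdgfra. Leaving out called doublets was not run for the Tbx1neo2/neo2 carrier library, which had 0 calls. The 6 and 8 cells of the other libraries are few, and differences in rarer genes were not tested there.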
